A study of Mus musculus with 11 samples.

Results

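The genes described here encode the nuclear part of the mitochondrial respiratory chain. They are the protein-coding mouse genes whose symbols begin with Ndufa, Ndufb, Ndufc, Ndufs or Ndufv (the assembly factors named Ndufaf were excluded), the genes Sdha to Sdhd, the Uqcr genes, the Cox4 to Cox8 subunits, the Atp5 genes, Cyc1 and Cycs. The rule reads symbols and gene type alone, and 87 of the 52550 genes in the table met it. Complex I held 38 of them, complex II 4, complex III 9 with Cyc1 counted there, complex IV 18 and complex V 17, and Cycs stood alone. Another 13 genes carried such a symbol but were annotated as pseudogenes or as a long non-coding RNA and were left out.

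RNA-seq was performed on KCs and DETCs sorted from the flank epidermis of 8-week-old female huLangerin-DTA mice (hereafter LC-/-) and of WT littermates. In LC-/- mice the human langerin promoter drives diphtheria toxin subunit A, and LCs, the dendritic cells of the epidermis, have been missing since birth. KCs, the epithelial cells that form the epidermis, were sorted as live CD45- cells and DETCs, the γ/δ T cells that reside among them, as live CD45+ cells. Both gates took cells negative for MHC-II, langerin and c-kit. For KCs there were 3 WT and 3 LC-/- libraries, for DETCs 3 WT and 2 LC-/- libraries. Below, W1, W2 and W3 stand for the WT libraries and L1, L2 and L3 for those of LC-/- mice, in the order of their label numbers. No DETC library of L1 was analysed here. The labels do not say whether a KC and a DETC library with one number came from one animal, and the p-values below measure the spread between these libraries. No strain was given in the labels.

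The respiratory chain sits in the inner mitochondrial membrane. Complexes I and II take electrons from NADH and succinate, complex III passes them to cytochrome c, complex IV hands them to oxygen, and complexes I, III and IV pump protons whose return drives ATP synthesis by complex V. Most subunits are encoded in the nucleus and imported, a small set is encoded by mitochondrial DNA, and some nuclear subunits of complex IV exist as isoforms used in muscle, lung or testis. Proliferating keratinocytes and lymphocytes also draw ATP from glycolysis, so the chain is studied in both cell types as part of their energy metabolism.

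The libraries held 13491075 to 19750440 reads on genes. Cd207, which encodes langerin, had 0 reads in the 3 LC-/- KC libraries and normalized counts of 6.15 to 26.9 in WT KCs. In DETCs it had 16.5 to 46.7 in WT libraries, 0 in L2 and 4.42 in L3. Of 8 Langerhans cell markers, 3 were lower and 1 higher in LC-/- KCs (limma, adjusted p under 0.05). In LC-/- DETCs 4 were lower and 1 higher. The higher one in KCs was Epcam, with 5799 to 6564 in WT KCs and 9484 to 9970 in LC-/- KCs. The 15 keratinocyte markers were detected in the DETC libraries at a median of 14.8%, 15.1% and 17.7% of their WT KC level in W1, W2 and W3, and at 23.6% and 15.7% of their LC-/- KC level in L2 and L3. The 12 DETC markers summed to 347.8 to 670.8 normalized counts in KC libraries and to 208423 to 245021 in DETC libraries. In such bulk samples fewer cells of one type and less RNA per cell cannot be told apart.

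Values are normalized counts, that is, reads divided by a size factor for the library. Of the 87 genes 81 passed the filter on low values (a CPM, the count scaled to the library total, above 1 in at least 2 of 11 libraries), among 14419 genes tested. All members of complexes I, II, III and V and Cycs passed, and in complex IV 12 of 18 did. The 6 that did not were Cox4i2, Cox6a2, Cox7a1, Cox7b2, Cox8b and Cox8c, isoforms of complex IV subunits known from other tissues. Cox7b2, Cox8b and Cox8c had 0 reads in all 11 libraries, Cox6a2 had 1 read, Cox4i2 3 reads and Cox7a1 15 reads over all libraries. A count of 0 allows up to 3 reads in a library, which covers counting error alone.

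Levels between genes were compared as normalized counts per kilobase of the principal transcript. In WT KCs the medians were 361 for complex I, 339 for complex II, 637 for complex III, 1099 for complex IV and 930 for complex V, and in WT DETCs they were 278, 299, 492, 989 and 811. Atp5b, the catalytic β subunit of ATP synthase, had the highest level of all members in both cell types, at 4375 per kb in WT KCs and 4249 in WT DETCs. Cox6b2, the testis form of a complex IV subunit, had the lowest at 34.8 and 8.08 per kb. Complexes IV and V lay above complex I by median in both populations.

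**Figure D1:**
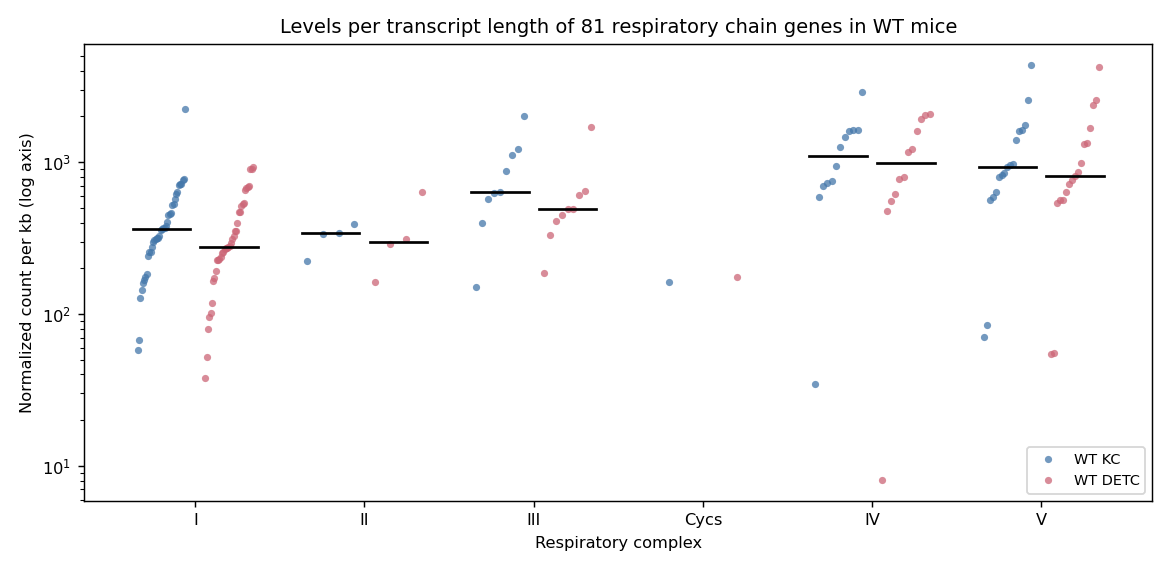
Level of each tested member in WT KCs (blue) and WT DETCs (red), as the group mean of normalized counts per kilobase of the principal transcript on a log axis, by complex, with the median of the complex as a black line. Within complex I the WT KC levels ran from 58.3 per kb (Ndufb2) to 2230 per kb (Ndufa4l2, counted there by its symbol). The DETC medians lay below the KC medians in each of the 5 complexes.

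The members are scattered over 19 chromosomes, and 3 are X-linked. RefSeq promoter windows (GRCm38.p6, 250 bases before to 50 bases after the start) were found for 70 of the 87 members. The motif of the transcription factor NRF1 was searched on either strand with 1 free base (GCGCATGCGC is one form of it). At least 1 window held it in 24.3% of these members and in 7.17% of 17492 protein-coding genes. AANATGGC, bound by YY1, stood in 24.3% and 7.46%. The ETS family letters CCGGAAGT, which GABP binds, stood in 7.14% and 5.69%, and TATAAA in 7 of the 70 members, against 14.8%. Pieces added after these counts were seen were GCATGCGC, which lies within one form of the NRF1 motif, in 15.7% against 3.94%, and the cyclic AMP response element TGACGTCA in 7.14% against 2.54%. These matches are letters in a window, not binding sites.

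The windows given here are those of the 3 members with the largest genotype difference among those whose window held a motif (Ndufs8, Ndufc1 and Ndufa3), of Uqcrc1, the member with the smallest p between WT DETCs and WT KCs, and of Cycs, which differed between genotypes in KCs. They lie at chr19:3912725-3913024 on the minus strand (Ndufs8), chr3:51408906-51409205 minus (Ndufc1), chr7:3617123-3617422 plus (Ndufa3), chr9:108936398-108936697 plus (Uqcrc1) and chr6:50566520-50566819 minus (Cycs), and are written 5′ to 3′ along the gene with motif letters in capitals.
Ndufs8: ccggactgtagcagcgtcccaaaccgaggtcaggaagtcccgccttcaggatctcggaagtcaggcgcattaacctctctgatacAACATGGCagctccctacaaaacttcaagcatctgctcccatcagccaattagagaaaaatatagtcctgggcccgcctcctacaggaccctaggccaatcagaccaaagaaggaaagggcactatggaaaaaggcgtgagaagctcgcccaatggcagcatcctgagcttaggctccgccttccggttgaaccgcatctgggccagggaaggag
Ndufc1: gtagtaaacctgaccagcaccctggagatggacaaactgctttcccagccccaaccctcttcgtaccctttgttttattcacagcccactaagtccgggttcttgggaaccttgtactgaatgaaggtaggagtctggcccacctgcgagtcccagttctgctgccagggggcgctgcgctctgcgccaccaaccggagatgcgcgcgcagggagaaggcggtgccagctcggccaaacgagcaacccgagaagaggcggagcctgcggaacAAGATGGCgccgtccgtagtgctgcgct
Ndufa3: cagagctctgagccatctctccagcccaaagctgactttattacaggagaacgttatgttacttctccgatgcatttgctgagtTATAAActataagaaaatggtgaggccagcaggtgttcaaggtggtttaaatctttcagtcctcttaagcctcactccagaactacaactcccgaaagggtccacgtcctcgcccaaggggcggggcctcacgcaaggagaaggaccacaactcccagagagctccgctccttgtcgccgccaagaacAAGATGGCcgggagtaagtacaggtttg
Uqcrc1: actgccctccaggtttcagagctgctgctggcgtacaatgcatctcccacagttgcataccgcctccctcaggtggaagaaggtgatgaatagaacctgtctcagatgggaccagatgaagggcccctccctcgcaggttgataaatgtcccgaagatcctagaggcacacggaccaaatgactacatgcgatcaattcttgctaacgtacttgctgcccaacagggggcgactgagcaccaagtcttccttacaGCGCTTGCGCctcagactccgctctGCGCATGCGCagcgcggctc
Cycs: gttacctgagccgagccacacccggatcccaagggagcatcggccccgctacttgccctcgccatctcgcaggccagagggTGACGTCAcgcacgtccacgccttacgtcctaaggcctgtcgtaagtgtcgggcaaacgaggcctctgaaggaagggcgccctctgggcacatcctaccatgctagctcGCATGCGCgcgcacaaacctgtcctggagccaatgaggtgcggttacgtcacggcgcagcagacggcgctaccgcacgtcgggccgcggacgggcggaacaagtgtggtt
Capitals mark the YY1 letters at position -165 of Ndufs8 and at position 23 of both Ndufc1 and Ndufa3, counted from the start site, and TATAAA at -166 of Ndufa3. The YY1 letters include an ATG. Uqcrc1 holds the NRF1 letters at positions 6 and 31, and Cycs holds the shorter NRF1 piece at -60 and the cyclic AMP response element at -169. Windows of Ndufa4l2 and Sdhc were not analysed here.

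The first question was how far the chain differed between DETCs and KCs of WT mice. Most members differed little between the populations, with Ndufa4l2, Cox6b2, Uqcrc1 and Ndufb9 as the lowest and Ndufa13 and Ndufa2 as the highest. Of the 81 members 12 were higher and 36 lower in DETCs (limma with Benjamini-Hochberg adjustment over 14419 genes, adjusted p under 0.05), together 59.3%, against 76.0% of all genes (41.0% higher and 35.1% lower). The median member difference was -0.18 on the log2 scale against 0.07 for all genes, and its median size was 0.35 against 0.85. Only 6 members differed by 1 log2 unit or more, that is 7.41%, against 45.0% of all genes. In 55 members the 3 DETC libraries did not overlap the 3 KC libraries (79.4% of all genes did so), 13 with DETCs higher and 42 with DETCs lower, against 42.7% and 36.7% of all genes.

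Scaling moved this balance without turning its direction. Quantile normalization gave 8 members higher and 59 lower, with an all-gene median of -0.24, and centring on the median also gave 8 and 59. Relative to the all-gene median of the same fit, the member median stayed between -0.31 and -0.16 in every alternative run.

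Complex I, the NADH dehydrogenase, had 7 members higher and 18 lower in WT DETCs, with a median of -0.27. Of its 7 core subunits, which hold the redox centres, 2 were called, Ndufs8 and Ndufv2, both lower, and the median was -0.09. Of the 31 accessory subunits 7 were higher and 16 lower, with a median of -0.37, and the difference from the core subunits was not tested.

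Ndufb9, an accessory subunit of the membrane arm, had 377, 447 and 389 normalized counts in WT KCs and 196, 186 and 196 in WT DETCs. It was 2.08-fold lower in DETCs (log2 difference -1.06, SE 0.10, adjusted p = 7.71e-06). Ndufs4 (-0.84), Ndufs6 (-0.77), Ndufa10 (-0.76), Ndufb4 (-0.74) and Ndufs8 (-0.72) followed on the log2 scale. All are complex I subunits, and all were also called.

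Other accessory subunits were higher in DETCs than in KCs. Ndufa13, also known as GRIM-19, had 394, 378 and 445 normalized counts in WT KCs and 894, 898 and 832 in WT DETCs, a 2.16-fold higher level (log2 difference 1.11, SE 0.08, adjusted p = 1.58e-06). The DETC libraries stood above the KC libraries without overlap, and 375 of its exon bases overlap Tssk6 on the opposite strand, which had 183 reads over all libraries beside 6877 for Ndufa13. Ndufa2 (1.04), Ndufb7 (0.99), Ndufa1 (0.55), Ndufa3 (0.49) and Ndufb11 (0.21) were also higher on the log2 scale.

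The largest difference among all members was that of Ndufa4l2. Ndufa4l2 (ENSMUSG00000040280.10, chr10:127514967-127517154, plus strand) encodes a relative of NDUFA4 that is known to be induced by hypoxia. It had 1926, 2340 and 1982 normalized counts in WT KCs and 253, 444 and 289 in WT DETCs, and was 6.49-fold lower in DETCs (log2 difference -2.70, SE 0.18, adjusted p = 6.70e-07). The DETC libraries thus held 12.2%, 21.3% and 13.9% of the WT KC level, in the range of the keratinocyte markers in these libraries. Ndufa4l2 RNA of DETCs and of keratinocytes in the DETC libraries cannot be told apart at this level.

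Ndufa4 itself, once placed in complex I and now known as a subunit of complex IV, went the other way. By its symbol it is counted in complex I here, and without it 6 members of complex I were higher and 18 lower. Ndufa4l2, also placed there by its symbol, is still among those 18. For Ndufa4 the WT KC libraries had 325, 309 and 335 normalized counts and the WT DETC libraries 540, 567 and 589. Its log2 difference was 0.81 (SE 0.08, adjusted p = 1.12e-05). Per kilobase, Ndufa4l2 made up 80.7% ± 2.16 (SD, n = 3) of the summed Ndufa4 and Ndufa4l2 level in WT KCs and 27.2% ± 5.79 (n = 3) in WT DETCs. In LC-/- mice the share was 67.8% ± 4.39 (n = 3) in KCs and 20.5% ± 8.77 (n = 2) in DETCs. The 3 LC-/- KC values, 62.7%, 69.7% and 70.9%, lay below the 3 WT KC values of 79.4% to 83.2%.

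**Figure D2:**
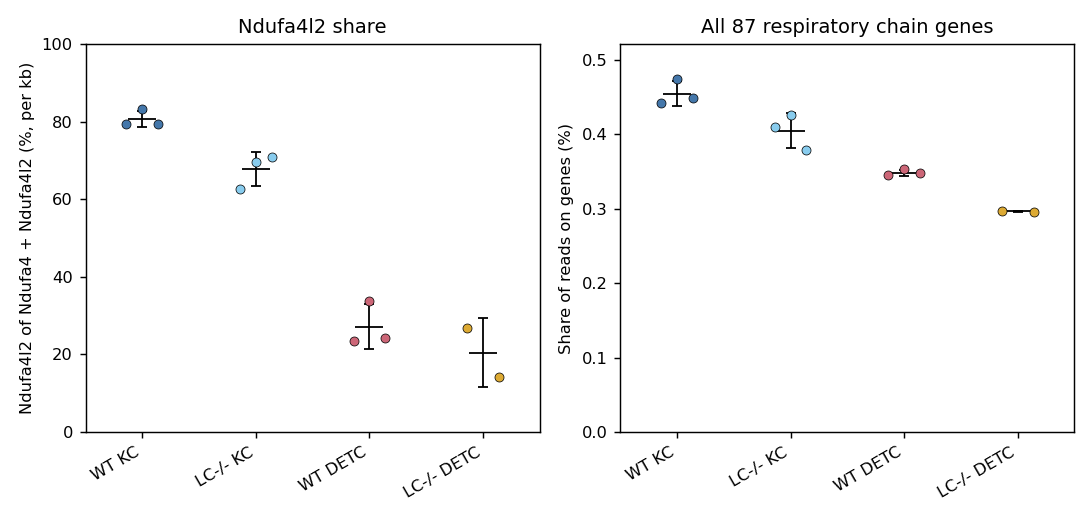
Left, share of Ndufa4l2 in the summed level of Ndufa4 and Ndufa4l2 per kilobase (%) in each library, and right, share of all reads on genes that fell on the 87 members (%), with points for libraries and the mean ± SD of each group in black. Both shares stepped down from WT KCs over LC-/- KCs and WT DETCs to LC-/- DETCs, and the DETC ranges of the Ndufa4l2 share overlapped.

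Succinate dehydrogenase, complex II, is built from 4 nuclear subunits. Sdha, the flavoprotein with the succinate site, had 1167, 1087 and 1160 normalized counts in WT KCs and 1659, 1944 and 1950 in WT DETCs, a log2 difference of 0.70 (SE 0.08, adjusted p = 3.18e-05). Sdhc, one of the membrane anchors, was lower in WT DETCs by -0.44 (SE 0.08, adjusted p = 0.000532). Sdhb (-0.24) and Sdhd (-0.13) did not pass the test. So the catalytic subunit and an anchor of one enzyme stood on opposite sides.

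Complex III, the cytochrome bc1 complex, was the group with the lowest median, at -0.50, with 7 of 9 members lower in WT DETCs and 1 higher. Uqcrc1, a core protein of the complex, had 2036, 2016 and 2000 normalized counts in WT KCs and 801, 794 and 860 in WT DETCs. It was 2.47-fold lower in DETCs (log2 difference -1.30, SE 0.06, adjusted p = 6.65e-08), and the gap was far wider than the spread within the groups. Uqcr11 (-0.82), Uqcrb (-0.79), the Rieske protein gene Uqcrfs1 (-0.52) and Uqcrc2 (-0.50) were lower as well, and Uqcrq, a small ubiquinone-binding subunit, was the member called higher in DETCs (0.30, adjusted p = 0.0268). That call was made in 6 of 13 alternatives and in 2 of 6 fits without 1 library. Over all 13 alternatives its difference fell to as little as 0.082.

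Cytochrome c, the carrier between complexes III and IV and a trigger of apoptosis when released, did not pass the test between populations. Cycs had 518, 493 and 514 normalized counts in WT KCs and 511, 586 and 538 in WT DETCs (log2 difference 0.10, SE 0.08, adjusted p = 0.288).

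Complex IV, cytochrome c oxidase, had 2 members higher and 6 lower in WT DETCs, with a median of -0.16. Cox5a, a ubiquitous subunit, had 495, 473 and 475 normalized counts in WT KCs, 484, 481 and 529 in LC-/- KCs, 455, 533 and 510 in WT DETCs, and 457 and 484 in LC-/- DETCs. All 4 groups overlapped, and its log2 difference between WT DETCs and WT KCs was 0.05 (SE 0.08, adjusted p = 0.597), a value whose sign turned with the scaling. Cox4i1 (-0.49, SE 0.08, adjusted p = 0.000438), Cox5b (-0.55), Cox7a2l (-0.47), Cox7c (-0.26) and Cox7a2 (-0.24) were lower in DETCs. Cox8a (0.35, adjusted p = 0.00257) and Cox6a1 (0.24, adjusted p = 0.0393) were higher, and neither passed the test after quantile normalization or centring on the median. Cox8a was called in 10 of 13 alternatives and in 6 of 6 fits without 1 library. Cox6a1 was called in 4 of 13, over which its difference fell to 0.013, and in 2 of 6. Cox7a2 was called in 10 of 13 and in 2 of 6.

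In the isoform pairs of complex IV the common form made up nearly the whole level in both cell types. Per kilobase, Cox4i1, Cox6a1, Cox7b and Cox8a each took 99.9% or more of their pair in every library, and Cox7a2 took 98.6% or more beside the muscle form Cox7a1. Cox6b2 was 2.73% ± 0.82 (SD, n = 3) of the Cox6b pair in WT KCs and 0.66% ± 0.07 (n = 3) in WT DETCs. Its 14, 27 and 25 reads in WT KCs and 4, 6 and 5 reads in WT DETCs gave a log2 difference of -1.86 (SE 0.32, adjusted p = 0.000453), and with 21.5% to 24.3% of the KC level in WT DETCs it lay near the keratinocyte markers.

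Complex V, ATP synthase, had 1 member higher and 4 lower in WT DETCs, with a median of -0.14. The 5 subunits of the catalytic F1 head lay close to 0, with a median of 0.01, apart from Atp5d. Atp5d, the δ subunit of the stalk, had 1523, 1494 and 1493 normalized counts in WT KCs and 2086, 2336 and 2220 in WT DETCs (log2 difference 0.56, SE 0.07, adjusted p = 3.89e-05). Atp5o, the OSCP subunit that joins head and stator, was lowest at -0.77 (SE 0.07, adjusted p = 6.27e-06). The ring of subunit c is made from 3 genes that encode the same mature protein. Atp5g1 (-0.63) and Atp5g3 (-0.39) were lower in DETCs, while Atp5g2 (-0.03, adjusted p = 0.812) did not pass the test, and Atp5g3 gave most of the level at 65.8% in WT KCs and 60.8% in WT DETCs.

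**Figure D3:**
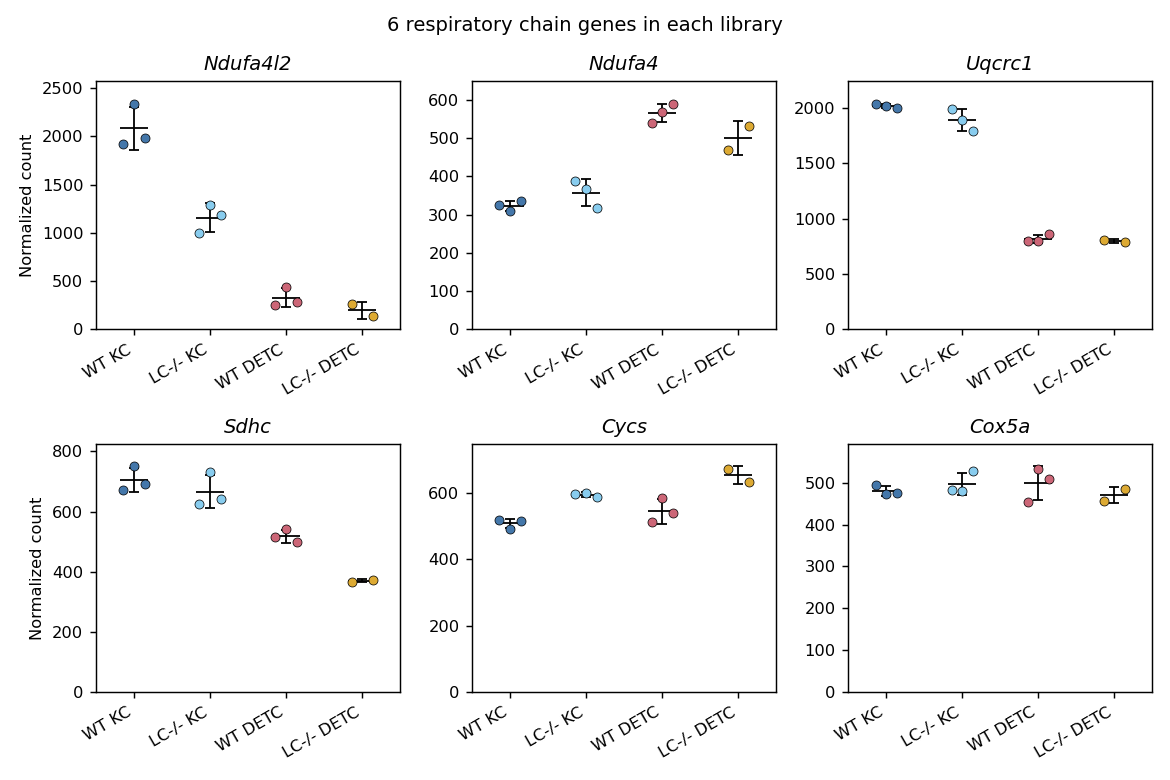
Normalized counts of 6 members in each of the 11 libraries, by group, with points for libraries and the mean ± SD of each group in black. Ndufa4l2 and Uqcrc1 separated KCs from DETCs, Ndufa4l2 and Cycs separated the genotypes in KCs, Sdhc separated the genotypes in DETCs, and Cox5a overlapped between all groups.

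The same populations were compared in LC-/- mice, in libraries that had no part in the WT comparison. There 7 members were higher and 36 lower in DETCs, together 53.1%, against 70.2% of all genes (38.1% higher and 32.1% lower). The median was -0.27 against 0.08 for all genes, and quantile normalization gave 4 members higher and 58 lower. Across the 81 genes, which are not independent replicates, the differences in LC-/- and WT mice had a Pearson correlation of 0.970 and the same sign in 74. Called higher in both were 7 members and called lower in both 32, and 0 were called in opposite directions. The correlation and these counts were not computed for all genes, of which 76.0% were called in WT mice and 70.2% in LC-/- mice. The agreement can therefore not be read as particular to the chain. In 59 members the groups did not overlap (81.8% of all genes), 10 with DETCs higher and 49 with DETCs lower, against 44.0% and 37.7%. Uqcrc1 (-1.24), Ndufa4l2 (-2.61) and Ndufa13 (1.20) had log2 differences near those in WT mice, and that of Sdhc was -0.84 beside -0.44.

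**Figure D4:**
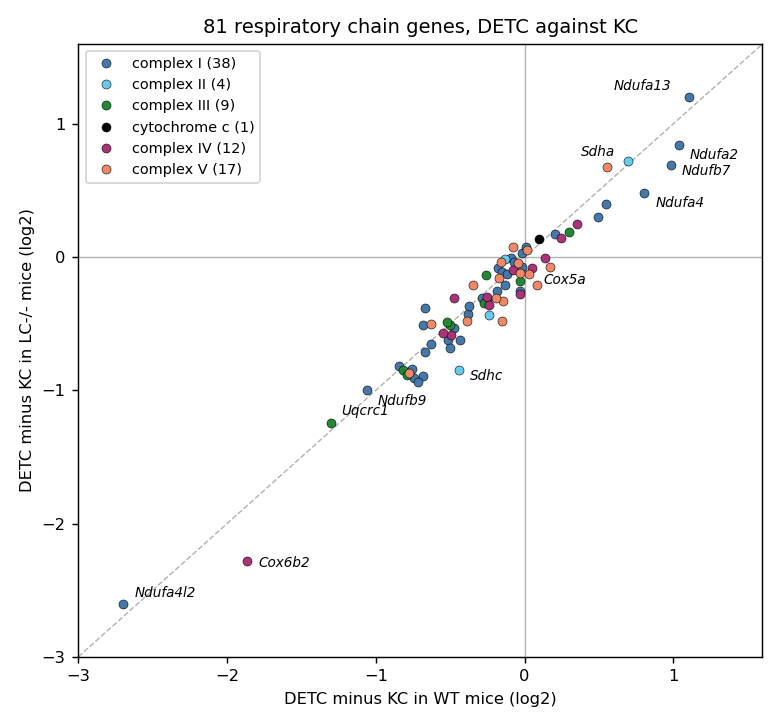
Log2 difference between DETCs and KCs of each of the 81 members in WT mice (horizontal) and in LC-/- mice (vertical), coloured by complex, with a dashed line of equal values. Most members lie between -1 and 1 along the line, Ndufa4l2 and Cox6b2 stand at the lower left, and Sdhc lies below the line at -0.44 and -0.84.

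The second question was whether the chain differed in KCs that had developed without LCs. In KCs 2 of 81 members passed the test, Ndufa4l2 lower and Cycs higher in LC-/- mice, that is 2.47%, against 7.23% of all genes (5.37% higher and 1.85% lower). The median member difference was -0.03 against -0.01 for all genes, and centring on the library median turned it to 0.06 while moving the all-gene median to 0.07. At an unadjusted p under 0.05, 2 members were higher and 10 lower, that is 2.47% and 12.3%, against 14.7% and 11.7% of all genes. In 21 members the genotypes did not overlap (31.5% of all genes), 6 with LC-/- KCs higher and 15 with LC-/- KCs lower, against 16.6% and 14.9%.

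Ndufa4l2 had 1926, 2340 and 1982 normalized counts in WT KCs and 997, 1293 and 1186 in LC-/- KCs. Every LC-/- library lay below every WT library, and the level was 1.80-fold lower (log2 difference -0.85, SE 0.12, adjusted p = 0.0280). This call was made in all 11 alternatives that kept every library, with adjusted p up to 0.0437, edgeR and DESeq2 among them. Leaving out 1 library at a time gave differences of -0.93 to -0.74 with adjusted p of 0.0445 to 0.0924, under the threshold only without L2. Over all genes 5 to 721 were called in these fits, in place of 1042. An overlap of 32 bases with Shmt2 on the opposite strand covers 2.92% of its exon bases.

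Cycs (ENSMUSG00000063694.5, chr6:50562563-50566538, minus strand) had 518, 493 and 514 normalized counts in WT KCs and 597, 600 and 586 in LC-/- KCs. The groups did not overlap, and the level was 1.17-fold higher (log2 difference 0.23, SE 0.04, adjusted p = 0.0342). The call was made in 5 of 11 alternatives, and edgeR, DESeq2 and the fit over 11 libraries did not make it. Over all 11 alternatives adjusted p ran from 0.0168 to 0.169. In the 6 fits without 1 library its difference was 0.20 to 0.24 (adjusted p 0.0569 to 0.112). Cytochrome c genes have processed copies elsewhere in the genome, so this count is uncertain as far as reads were shared with them.

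Other members with a small p did not pass the test. They included Ndufc1 (-0.36, adjusted p = 0.0638) and Ndufv3 (-0.38, 0.0734) on the lower side, and Cox4i1 (0.15, 0.0947), Uqcrh (0.07, 0.202), Atp5mpl (0.18, 0.223) and Atp5h (0.08, 0.237) on the higher side. Ndufc1, a small membrane arm subunit, had 162, 155 and 160 normalized counts in WT KCs and 127, 115 and 130 in LC-/- KCs, without overlap. Ndufv3, a small subunit of the NADH-binding arm, had 449, 399 and 361 against 306, 323 and 298, and was called lower in 4 of 11 alternatives, edgeR and DESeq2 among them.

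By complex, the KC medians between genotypes were -0.10 for complex I, -0.11 for complex II, 0.01 for complex III, 0.06 for complex IV and 0.02 for complex V. All 7 core subunits of complex I and all 4 subunits of complex II were below 0, and 9 of 12 members of complex IV above 0, from -0.62 (Cox6b2) to 0.15 (Cox4i1). None of these counts was tested. The medians of complexes III and V turned below 0 under some alternatives, while those of complexes I, II and IV kept their sign in every one run. With median centring 19 of 38 complex I members were below 0 in place of 29, so the sign of single small differences depends on the scaling.

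**Figure D5:**
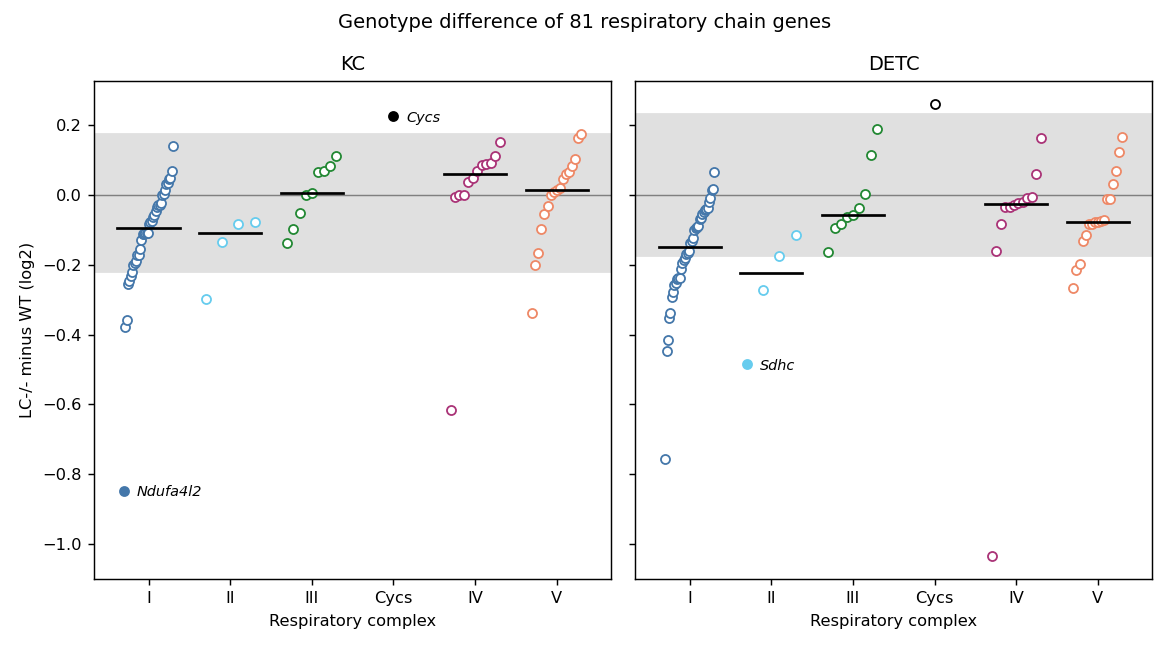
Log2 difference between LC-/- and WT of each of the 81 members in KCs (left) and DETCs (right) by complex, with filled points for members that passed the test, the median of each complex as a black line and the interquartile range of all 14419 genes as a grey band. Ndufa4l2 (-0.85) and Cycs (0.23) were called in KCs and Sdhc (-0.48) in DETCs, and the medians of all 5 complexes were below 0 in DETCs, that of complex IV turning to 0.01 without W2.

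In DETCs 1 of 81 members passed the test between genotypes, Sdhc, that is 1.23%, against 3.56% of all genes (3.13% higher and 0.43% lower). In LC-/- DETCs 68 of 81 members were below 0, against 47.6% of all genes, with a median of -0.08 against 0.02. The members share the same libraries and are not replicates, and their shift as a group was not tested here. The study's own KEGG pathway analysis listed oxidative phosphorylation and the citrate cycle among the pathways altered in DETCs of LC-/- mice. Its text named no direction for them, and its gene sets were chosen otherwise than the members here. Of the lists described below, 14 of 19 citrate cycle genes, 51 of 77 mitochondrial ribosomal proteins and 36 of 45 assembly factors were also below 0. The counts were 8 of 16 for the regulators, 3 of 11 for the carriers and 1 of 11 for the mitochondrially encoded subunits. The member median relative to the all-gene median was between -0.13 and -0.08 in every alternative run. In 27 members the 2 LC-/- libraries did not overlap the 3 WT libraries (37.9% of all genes), 2 higher and 25 lower, against 21.3% and 16.5%. At an unadjusted p under 0.05, 1 member was higher and 5 lower, that is 1.23% and 6.17%, against 13.1% and 6.19% of all genes.

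Sdhc (ENSMUSG00000058076.12, chr1:171127165-171150603, minus strand) encodes the large membrane anchor of succinate dehydrogenase, which holds heme b and ubiquinone. It had 516, 541 and 498 normalized counts in WT DETCs and 366 and 374 in LC-/- DETCs. Both LC-/- values lay well under the lowest WT value, and the level was 1.40-fold lower (log2 difference -0.48, SE 0.10, adjusted p = 0.0458). The call was made in 8 of 12 alternatives, edgeR and DESeq2 among them, with adjusted p from 0.00792 to 0.180, and the difference was -0.51 to -0.45 in the 5 fits without 1 library (0.0808 to 0.187), in which 35 to 590 of all genes were called in place of 514. In KCs its values were 672, 750 and 692 in WT mice and 626, 731 and 643 in LC-/- mice, which overlapped.

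Ndufb3 (-0.45, adjusted p = 0.132), Ndufs8 (-0.42, 0.175), Cycs (0.26, 0.225), Ndufv3 (-0.34, 0.230) and Ndufa4l2 (-0.76, 0.241) followed in DETCs without passing the test. Ndufs8, a core subunit that carries iron-sulfur clusters, had 193, 181 and 194 normalized counts in WT DETCs and 132 and 151 in LC-/- DETCs. Cycs had 511, 586 and 538 against 672 and 634, so that both LC-/- libraries lay above the WT libraries, as in KCs. Ndufa4l2 had 253, 444 and 289 against 261 and 136, which overlapped, and its share of the LC-/- KC level, 22.5% in L2 and 11.7% in L3, stood beside keratinocyte marker levels of 23.6% and 15.7%.

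The complex medians in DETCs were -0.15 for complex I, -0.22 for complex II, -0.06 for complex III, -0.02 for complex IV and -0.08 for complex V. In complex I 35 of 38 members were below 0, all 7 core subunits among them, and 31 to 37 were in every alternative run. The genotype comparisons of KCs and DETCs share no library but may share animals. Below 0 in both were 43 members and above 0 in both 10, with Cycs and Uqcrh among the latter. In KCs alone 46 of 81 members were below 0 and in DETCs alone 68. Counts over both cell types were not made for all genes. Summed reads of 8 immediate early genes, a sign of handling stress, were 277616 to 330357 normalized counts in WT DETCs and 344237 to 395912 in LC-/- DETCs, and their part in these differences was not tested. The 12 DETC markers summed to 240945 to 245021 in WT DETCs and to 208423 to 217443 in LC-/- DETCs. Their median log2 difference was -0.08, with 11 of 12 below 0 and 1 called, lower. Trdc had 30304 to 39123 in WT DETCs and 26887 and 23250 in LC-/- DETCs. Trdv4 had 7750 to 11432 against 5387 and 4115. Ptprc had 30814 to 31182 against 28113 and 32157, which overlapped. The study reported Trdv4 and Tcrg-V5 as lower in LC-/- DETCs. With the keratinocyte share subtracted from each DETC library the median of the respiratory chain members was -0.19.

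The whole set took 0.441% to 0.474% of the reads on genes in WT KCs, 0.379% to 0.426% in LC-/- KCs, 0.345% to 0.353% in WT DETCs and 0.296% to 0.297% in LC-/- DETCs. The 4 ranges did not overlap. In normalized counts, which correct for a few very abundant transcripts, the sums were 61488 to 63002, 58421 to 62591, 52240 to 57505 and 54084 to 54432, and there the genotype ranges overlapped in both populations.

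Whether the genotype difference itself differed between DETCs and KCs was tested with an interaction term over all 11 libraries. Among the members 0 of 81 passed (0.798% of all genes did, 0.617% higher and 0.18% lower), and 0 passed with edgeR or DESeq2. At an unadjusted p under 0.05, 2 were lower (2.47%) and 0 higher, against 4.04% and 7.30% of all genes: Sdhc (-0.40, SE 0.13, adjusted p = 0.217) and Ndufa4 (-0.32, SE 0.14, adjusted p = 0.423). Atp5e (-0.29), Cox6b1 (-0.25) and Ndufc1 (0.29) came next. The lower Sdhc in LC-/- DETCs was therefore not shown to be particular to DETCs.

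Genes that build or serve the chain were examined beside it. Of 45 assembly factors tested, 13 were higher and 8 lower in WT DETCs, with a median of 0.17, from Acad9 (-1.33), a complex I assembly factor, to Cox17 (1.87), a copper chaperone of complex IV. In the genotype comparisons 1 of 45 was called in KCs, Coa5 lower (-0.33, adjusted p = 0.0300), and 0 in DETCs, where 5 had an unadjusted p under 0.05, with a median of -0.18 in both. Of 77 mitochondrial ribosomal proteins 12 were higher and 29 lower in WT DETCs, with a median of -0.22, from Mrps28 (-1.34) to Mrpl33 (1.29), and 1 was called between genotypes, Mrps7 higher in LC-/- KCs (0.31, adjusted p = 0.0474).

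Of 19 genes of pyruvate dehydrogenase and the citrate cycle, 7 were higher and 7 lower in WT DETCs. Cs, citrate synthase, was lowest, with 4754, 4632 and 4632 normalized counts in WT KCs and 2288, 2841 and 2867 in WT DETCs (log2 difference -0.82, adjusted p = 2.85e-05), and Dlst, a subunit of 2-oxoglutarate dehydrogenase, was highest (2.30). Dlst (0.38, adjusted p = 0.0410) and Pdhx (0.43, adjusted p = 0.0470) rose in LC-/- KCs.

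Of 16 regulators of mitochondrial genes, 4 were higher and 4 lower in WT DETCs. Ppargc1a, the coactivator PGC-1α, had 40.0, 42.7 and 35.4 normalized counts in WT KCs and 10.9, 8.25 and 7.78 in WT DETCs (log2 difference -2.02, SE 0.26, adjusted p = 6.06e-05). Nrf1, whose motif was counted above, had 379, 367 and 392 in WT KCs and 526, 662 and 624 in WT DETCs (0.66, adjusted p = 0.000185). Esrra was lower in DETCs (-0.34, adjusted p = 0.0211), and Gabpa (0.02), Tfam (-0.08) and Ppargc1b (0.21) did not pass the test. Between genotypes Pprc1, a relative of PGC-1α, was higher in both LC-/- KCs (0.46, adjusted p = 0.0342) and LC-/- DETCs (0.46, adjusted p = 0.0481). Gabpb1, a GABP subunit, was higher in LC-/- DETCs (0.76, adjusted p = 0.0105). For the genotype calls in these lists the results under the alternatives are not given here. Over all genes 5 to 721 were called in KCs without 1 library, in place of 1042. In DETCs 0 were called without the trend and 6 with the keratinocyte share subtracted, in place of 514.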

How the data were processed

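RNA-seq was performed on sorted KCs and DETCs of WT and LC-/- mice (11 libraries). Per the study's methods, the authors trimmed reads with cutadapt (quality 20), aligned them to GRCm38 with hisat2 and counted them with featureCounts. Its strand setting was not given in the sources used here. Exons of 30 of the 87 members overlap exons of another gene. For 17 members the other gene had over 10% of the member's reads, with Atp5d, Ndufa2, Ndufb11, Cox4i1 and Ndufa4l2 among them. Whether such reads were shared or lost was not tested. The signal values the authors deposited are gene counts divided by size factors (DESeq2 per the submitters' processing notes). Whole reads were recovered for 100% of values (within 0.01 of a whole number), giving the depths and the reads for edgeR (4.0.16) and DESeq2 (1.42.0). Genes with a CPM above 1 in at least 2 libraries entered limma (3.58.1, R 4.3.3) on log2(normalized count + 1), a scale that understates changes of low genes. P-values were adjusted over 14419 genes, and the scripts were tested on simulated data. All gene differences and adjusted p-values in the text are from limma unless another tool is named. Gene IDs were matched to GENCODE release 21 (52403 of 52550). Promoter windows came from RefSeq.

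Members and gene lists were chosen with earlier results of these data known. Named by rule were Cox5a, the highest and lowest member per complex and comparison, Cycs, the isoform pairs, and the 5 members with the smallest p per direction for genotype. Other members were named after their values were seen. The result for 1 member named by this rule is not reported here. The alternatives tried are given in the closing section.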

Additional observations from a re-analysis of the deposited data

How the results depend on the processing

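Results were recomputed with other pseudocounts, filters, scalings and tests, with the keratinocyte share subtracted from DETC values, and without each library. The median member difference between DETCs and KCs in WT mice, -0.18, became -0.40 with quantile normalization, -0.24 with TMM scaling, -0.40 with median centring, -0.24 with edgeR and -0.47 with the keratinocyte share subtracted, and -0.24 to -0.16 without 1 library. In LC-/- mice it became -0.54 with quantile normalization, -0.58 with centring and -0.67 with subtraction, and 28 to 38 members were called without 1 library, 28 without DETC L3. Scaling moved the median of all genes too, from 0.07 to -0.24 (quantile) and -0.14 (centring) in WT mice.

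Between genotypes in KCs, 1 member was called in the fit over 11 libraries, 0 to 1 without 1 library, and the median became 0.057 with centring. In DETCs 0 were called without a filter, with quantile normalization, without the trend and with subtraction, and 0 without any 1 library, which leaves fewer samples. Without the trend 0 of all 14419 genes were called there too. The median there became -0.19 with subtraction. The other causes were not tested.

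Small differences changed sign. Between DETCs and KCs in WT mice Cox5a became -0.13 (quantile), -0.0027 (TMM), -0.17 (centring) and -0.19 (subtraction), and Cycs -0.087, -0.12 and -0.13 (quantile, centring, subtraction). In the same order in LC-/- mice, Uqcrq became -0.089, -0.12 and -0.085, Cox8a -0.025, -0.055 and -0.016, Cycs -0.077, -0.17 and -0.15, and Cox6a1 -0.14, -0.16 and -0.15. In KCs Sdhb became 0.0095 (centring) and Uqcrh -0.0062 (quantile). In the interaction Cox6b2 became 0.21 (pseudocount 8), 0.032 (quantile), 0.26 (edgeR), 0.27 (DESeq2) and 0.435 (subtraction), and Cycs -0.051 (centring) and -0.016 (subtraction). Without 1 library the WT population difference ran from -0.13 to 0.034 for Cox6b1, -0.14 to 0.010 for Cox7b and -0.10 to 0.085 for Atp5g2. The genotype difference ran from -0.15 to 0.029 for Sdhb and -0.029 to 0.23 for Uqcrq in KCs, and from -0.0030 to 0.13 for Ndufa6 and -2.52 to 0.45 for Cox6b2 in DETCs. The interaction ran from -1.90 to 1.06 for Cox6b2, decided by DETC L3 with 0 reads, and from -0.0093 to 0.090 for Cycs.

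The labels do not tie KC and DETC libraries of one number to one animal, and the deviations of such libraries correlated at -0.05 to 0.14, with 4 of 5 closest to their own number. With the number as a replicate block 47 members were called between populations in WT mice (12 higher, 35 lower), 43 in LC-/- mice and 0 in the interaction, with medians of -0.18 and -0.28, and no named call changed. Over 89 pairs of a named gene and a comparison, 996 of 1091 recomputed values kept direction and side of the threshold, as did 518 of 567 without 1 library. Depth limits Cox6b2, with at most 27 reads in a library.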

Other observations

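Other genes of the organelle were examined beside the nuclear chain. Of the 13 subunits encoded in mitochondrial DNA, 11 passed the filter. In WT mice 0 of them were called between DETCs and KCs by limma (median -0.06), with 0 at an unadjusted p under 0.05, and in LC-/- mice 1 was called, higher (median 0.23). Between genotypes 0 were called in either population, with 0 at an unadjusted p under 0.05, at medians of -0.17 in KCs (11 of 11 below 0) and 0.12 in DETCs (10 of 11 above 0). The LC-/- KC library L2 stood apart, with 0.895% of its reads on these genes against 1.22% in L1 and 1.21% in L3. Without it, an alternative added after seeing the data, the KC genotype median was 0.011 with 7 of 11 above 0, and the LC-/- population median was 0.0083 with 6 of 11 above 0. The levels within this list were uneven, on values not scaled to length. mt-Co1 had 56743 to 105236 normalized counts over the 11 libraries and mt-Co3 46.8 to 99.3, although both encode subunits of cytochrome c oxidase. Also low were mt-Co2 (122 to 481), mt-Atp6 (47.8 to 124) and mt-Nd3 (7.13 to 25.1), all among the 11 genes tested. The cause of these low counts was not tested. The medians and sign counts above are uncertain as far as they rest on such genes.

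Of 11 carriers and outer membrane proteins, 2 were higher and 3 lower in WT DETCs. Slc25a3, the phosphate carrier that supplies ATP synthase, was higher (log2 difference 1.80, limma adjusted p = 6.57e-06), and Vdac1, a pore of the outer membrane, was lower (-0.64, adjusted p = 2.50e-05). Timm23, the channel through which nuclear-encoded subunits enter the inner membrane, was higher in LC-/- KCs (0.49, adjusted p = 0.0193), the only one of the 11 called between genotypes in either population. Its result under the alternatives is not given here either.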
